A study of Homo sapiens with 4 samples.

Results

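The F-box proteins and the subunits that join them into SCF ubiquitin ligases were examined in 2 mantle cell lymphoma lines with and without a hairpin against the kinase BTK. Members were all symbols of the deposited table made of FBXO, FBXL or FBXW and a number, with SKP1, SKP2, CUL1, RBX1, BTRC and CCNF. This gave 70 of 25277 symbols. Of these, 67 are symbols of F-box genes and 3 (SKP1, CUL1 and RBX1) encode the core of the complex.

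Mino and Z138 are established lines from mantle cell lymphoma, a B cell cancer. Each was made into stable cultures that carried either a short hairpin against BTK (shBTK) or a control vector named sc4. Every culture, controls included, was treated with doxycycline for 48 hours before total RNA was taken. There was 1 library per line and vector, 4 in all. The labels do not state whether a stable culture was 1 clone or many, nor what sc4 expresses.

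An SCF ligase is built on the cullin CUL1. RBX1 recruits the ubiquitin-conjugating enzyme, SKP1 bridges to an F-box protein, and the F-box protein selects the substrate. FBXO10 is the F-box protein that marks the anti-apoptotic protein BCL2 for degradation, and its relative FBXO11 acts on the germinal centre repressor BCL6. F-box proteins are grouped by the domain that holds the substrate: WD40 repeats (FBXW), leucine-rich repeats (FBXL) or other domains (FBXO). SCF ligases act on proteins, so RNA levels describe the supply of subunits, not ligase activity.

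The values are FPKM, fragments scaled to transcript length and library size, so levels of different genes can be set side by side. Read depth is unknown. BTK, the target of the hairpin, had 37.0 FPKM in Mino with sc4 and 9.84 with shBTK, and 50.96 and 12.4 FPKM in the same order in Z138. The B cell genes CD79A, CD79B, MS4A1, PAX5 and CD22 were at 3.34 FPKM or more in each library. Myeloid markers (CD14, LYZ and CSF1R) summed to at most 0.473 FPKM and fibroblast markers (COL1A1, COL1A2 and COL3A1) to 0.679 to 4.61, highest in Mino. T cell markers (CD3D, CD3E and CD3G) summed to 0.161 and 0.344 FPKM in Mino, with CD3G listed at 0, and to 4.53 and 4.65 in Z138. The cyclin D1 gene CCND1, a defining gene of this lymphoma, was at 591 and 600 FPKM in Z138 but at 3.18 and 2.62 in Mino. It is 1 of 3 listed markers of this lymphoma, with SOX11 and CD5. Together the 3 summed to 29.2 and 25.8 FPKM in Mino and 611 and 623 in Z138. Of the 3, 1 was called higher in Z138 and 1 lower, so the list did not differ in 1 direction. The epithelial markers EPCAM, KRT8 and KRT18 summed to 38.8 and 36.1 FPKM in Mino and 0.410 and 0.387 in Z138, where KRT18 was listed at 0. The part of these marker differences in the results between the lines was not tested. In bulk RNA, fewer cells of a type and less RNA per cell cannot be told apart.

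The promoter windows of FBXO10 and of FBXO44, FBXO2 and FBXO6 are shown here, because these 4 genes had the lowest Z138 values relative to Mino in the family. They come from RefSeq (GRCh38.p14), which held a window for 53 of the 70 members, and run from 250 bases before to 50 after the gene's start, 5′ to 3′ on the gene's strand. Capitals mark GC boxes (GGGCGG, searched on both strands, overlaps counted). The windows are chr9:37576331-37576630 (minus strand) for FBXO10, chr1:11654157-11654456 (plus) for FBXO44, chr1:11654380-11654679 (minus) for FBXO2 and chr1:11663950-11664249 (plus) for FBXO6.
FBXO10: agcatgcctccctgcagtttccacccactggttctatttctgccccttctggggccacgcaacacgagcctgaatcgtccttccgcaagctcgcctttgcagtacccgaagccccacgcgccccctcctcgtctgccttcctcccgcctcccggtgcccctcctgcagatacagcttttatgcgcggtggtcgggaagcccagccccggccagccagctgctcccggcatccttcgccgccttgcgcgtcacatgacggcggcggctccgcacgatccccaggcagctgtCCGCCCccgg
FBXO44: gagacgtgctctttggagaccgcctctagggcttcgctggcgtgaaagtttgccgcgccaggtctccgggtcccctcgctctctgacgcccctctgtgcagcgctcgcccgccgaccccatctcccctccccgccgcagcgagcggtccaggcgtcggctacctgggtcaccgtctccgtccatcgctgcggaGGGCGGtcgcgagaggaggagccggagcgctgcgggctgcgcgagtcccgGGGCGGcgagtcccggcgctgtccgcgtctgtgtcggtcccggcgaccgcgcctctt
FBXO2: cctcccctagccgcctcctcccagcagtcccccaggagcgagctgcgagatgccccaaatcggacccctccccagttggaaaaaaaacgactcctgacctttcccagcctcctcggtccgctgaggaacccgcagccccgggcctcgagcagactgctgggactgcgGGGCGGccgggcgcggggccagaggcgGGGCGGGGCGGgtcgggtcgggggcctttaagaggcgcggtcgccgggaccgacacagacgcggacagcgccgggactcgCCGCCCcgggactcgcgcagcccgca
FBXO6: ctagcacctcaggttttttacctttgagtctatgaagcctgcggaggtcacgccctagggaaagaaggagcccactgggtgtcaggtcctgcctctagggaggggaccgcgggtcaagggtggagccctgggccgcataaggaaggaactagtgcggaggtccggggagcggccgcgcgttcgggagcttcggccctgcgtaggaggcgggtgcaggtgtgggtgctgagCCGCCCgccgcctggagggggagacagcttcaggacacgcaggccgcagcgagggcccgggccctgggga

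FBXO44 and FBXO2 start on opposite strands, and their windows share 77 bases. GC boxes were found 1 time in the FBXO10 window, 2 times in that of FBXO44, 4 times in that of FBXO2 and 1 time in that of FBXO6. A GC box is common: 45.0% of 35116 RefSeq windows of this length held one. CpG dinucleotides numbered 27, 43, 35 and 22 in the same order, beside a median of 14 over all windows. The E-box CACGTG, the ETS site CCGGAAGT, the octamer ATGCAAAT, TATAAA and CCAAT were in none of the 4 windows. Those letters occurred in 7.26%, 4.14%, 1.77%, 11.5% and 34.6% of all windows.

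FBXO10 RNA was high in Mino and low in Z138. Mino had 17.4 FPKM with sc4 and 14.8 with shBTK, and Z138 had 3.36 and 3.15. Both Mino values were thus above both Z138 values, and the vectors differed little within a line. The level in Mino was 5.19-fold that in Z138 between the controls and 4.71-fold between the hairpin libraries.

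The place of FBXO10 in the family moved accordingly. Among the 70 members it ranked 13 by FPKM in Mino with sc4 and 17 with shBTK, but 41 and 44 in Z138. Among the 67 F-box genes alone the ranks were 10, 14, 38 and 41. In Mino its neighbours in the order were FBXO46 (16.9 and 16.7 FPKM), FBXO34 (16.1 and 16.4), FBXL12 (15.8 and 17.7) and FBXW11 (16.4 and 15.6), whose ranges lie within or overlap that of FBXO10. In Z138 it stood with FBXO33 (2.80 and 3.23), FBXO9 (3.15 and 3.04) and FBXL15 (2.98 and 4.04), again with overlapping or touching ranges. FBXO10 made up 2.84% and 2.49% of the summed F-box FPKM in Mino and 0.759% and 0.712% in Z138. The sum itself was 613 and 597 FPKM in Mino and 442 in both Z138 libraries.

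**Figure D1:**
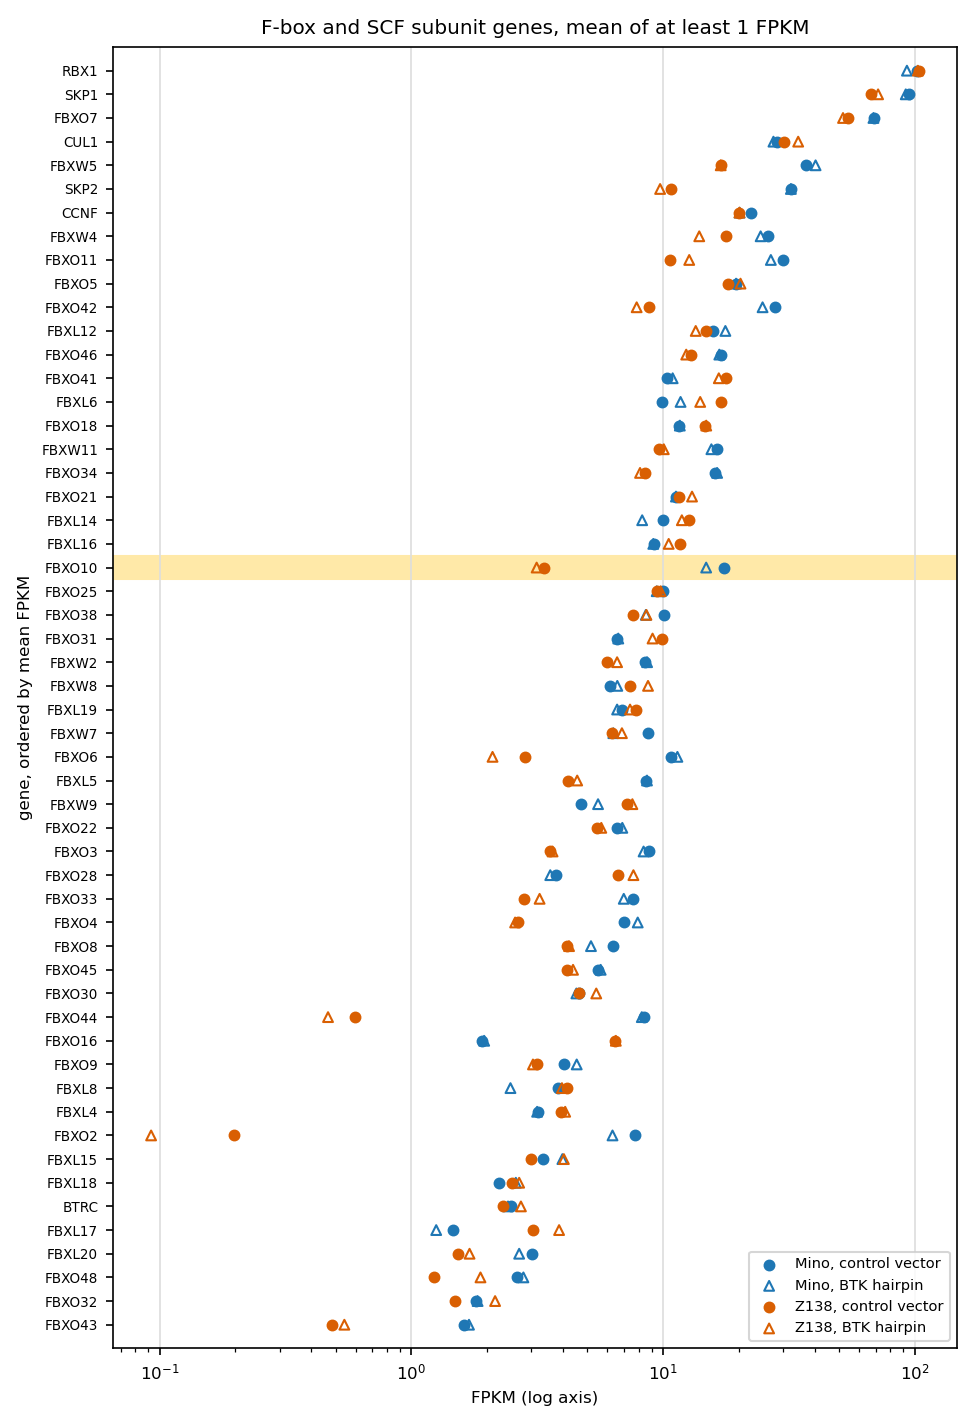
FPKM (log axis) of the members averaging 1 FPKM or more (1 of the 55 is not shown), 1 row per gene in order of mean level, with circles for control and triangles for hairpin libraries, blue for Mino and orange for Z138. The FBXO10 row is shaded: its Mino points (17.4 and 14.8) lie well to the right of its Z138 points (3.36 and 3.15).

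The core subunits were among the most abundant members. RBX1, the RING subunit, was at 102 and 93.1 FPKM in Mino and 104 and 103 in Z138, and ranked 1 in each library. SKP1, the adaptor, was at 94.6 and 92.1 in Mino and 67.0 and 71.5 in Z138. CUL1, the scaffold, was at 28.5 and 27.5 in Mino and 30.3 and 34.4 in Z138. Only SKP1 of these 3 differed between the lines by the test described further on. The most abundant F-box gene was FBXO7, whose product also acts in mitochondrial quality control, at 69.1 and 68.5 FPKM in Mino and 54.2 and 51.9 in Z138. FBXW5 followed in Mino at 37.1 and 40.4, with 17.0 and 16.9 in Z138.

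At the other end, 15 members had a mean below 1 FPKM and were not tested. Of these, FBXL7, FBXL21 and FBXO39 were listed at 0 in all 4 libraries. FBXL21 was not matched to a protein-coding gene in RefSeq, so it may not encode an F-box protein. Another 6 were listed at 0 in some libraries: FBXL2, FBXO17, FBXO27, FBXO47, FBXW10 and FBXW12, whose highest value was 0.148 FPKM (FBXW12, Mino hairpin). The other 6 were above 0 throughout: FBXL13, FBXL22, FBXO15, FBXO24, FBXO36 and FBXO40. FBXO36 reached 0.981 FPKM in Mino (sc4) and was the nearest to the limit. The lowest members above it were FBXO43, which inhibits the anaphase-promoting complex in meiosis, at 1.61 and 1.69 FPKM in Mino and 0.483 and 0.542 in Z138, and FBXO32 (atrogin-1, known from muscle wasting) at 1.81, 1.83, 1.49 and 2.15. FBXO48 was at 2.62, 2.79, 1.23 and 1.88, FBXL20 at 3.01, 2.68, 1.53 and 1.70, and FBXL17 at 1.46, 1.26, 3.05 and 3.86.

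The series concerns BTK, FBXO10 and BCL2, and the first comparison was that of hairpin with control. Differences are on the log2(FPKM + 1) scale, which understates changes of low genes. FBXO10 was slightly lower in the hairpin library of each line, by −0.22 (log2) for the Mino pair and −0.07 for the Z138 pair. Their mean was −0.14 (SE 0.14, 95% interval −0.46 to 0.17, adjusted p = 1.00 by limma), with the hairpin library lower in 2 of 2 lines. The interval holds no change as well as a modest fall or rise. Over all genes, the Z138 ratios went down with GC content (Spearman rho −0.56), and with that trend and the one on length removed the FBXO10 ratio in Z138 was 0.01 and in Mino −0.23. FBXO10 thus kept its sign in Mino only.

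No member passed this test. The model had line and hairpin as terms and was fitted in limma on the 11484 symbols averaging 1 FPKM or more, of which 0.122% passed at an adjusted p under 0.05. Of the 55 members tested 0 passed as higher and 0 as lower (0.061% of all symbols in each direction), and 0 had an unadjusted p under 0.05. The lowest unadjusted p was 0.0901 (adjusted p = 1.00 in limma), for FBXL15. The lines are the only replication here, so the p-values rest on the spread between 2 lines. With 1 residual and 6.88 prior degrees of freedom, that spread is mostly pooled over all tested symbols and is not the gene's own. In each line by itself, 0 members differed 1.5-fold on the log2(FPKM + 1) scale, beside 2.16% of all tested symbols in Mino and 1.76% in Z138. In FPKM as such, FBXL8 in Mino (3.84 and 2.48) and FBXO48 (1.23 and 1.88) and FBXO2 (0.198 and 0.0925) in Z138 did differ by more than 1.5-fold. At 1.2-fold on the log2 scale there were 3 members (5.45%) in Mino, beside 16.1% of all symbols, and 6 (10.9%) in Z138, beside 17.1%. The median ratio of the members was −0.01 in Mino and 0.04 in Z138, and that of all tested symbols −0.01 and 0.03. Ratios were above 0 in both lines for 14 members, below 0 in both for 12, and of opposite sign for 29.

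**Figure D2:**
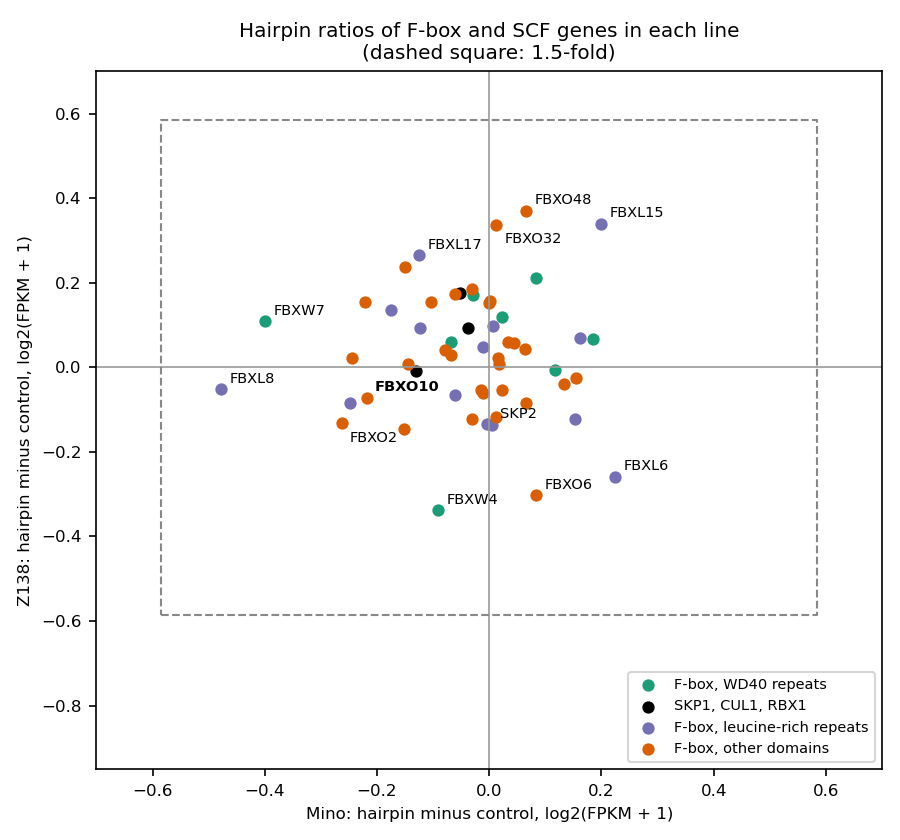
Log2 ratio of hairpin to control in Mino (x axis) and Z138 (y axis), on the log2(FPKM + 1) scale, for the 55 members tested, coloured by domain class. All points lie inside the dashed square that marks 1.5-fold, and FBXO10 lies at −0.22 and −0.07.

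The members with the highest and lowest mean ratios show how small the range was. FBXL15, a regulator of SMURF1, had 3.34 FPKM with sc4 and 3.98 with shBTK in Mino, and 2.98 and 4.04 in Z138. Its mean log2 ratio was 0.27 (SE 0.14). FBXO48 had 0.22 (SE 0.15) and FBXO32 0.17 (SE 0.15), each from Z138 almost alone (0.37 and 0.34, against 0.07 and 0.01 in Mino). FBXW8, a partner of CUL7, was at 6.16 and 6.58 FPKM in Mino and 7.39 and 8.72 in Z138 (mean log2 ratio 0.15). FBXW9 was at 4.73 and 5.52 in Mino and 7.16 and 7.55 in Z138 (0.13). On the lower side, FBXL8 was at 3.84 and 2.48 FPKM in Mino and 4.14 and 3.97 in Z138 (mean log2 ratio −0.26, SE 0.16). Its ratio of −0.48 in Mino was the lowest of any member in either line. FBXL8 overlaps HSF4 in RefSeq, and reads from the pair may not be separable. FBXW4, at 26.1 and 24.4 FPKM in Mino and 17.9 and 13.9 in Z138, had a mean ratio of −0.21 (SE 0.13), and FBXO2 one of −0.20 (SE 0.14). FBXL14, which acts on Snail proteins, was at 9.997 and 8.26 FPKM in Mino and 12.6 and 11.9 in Z138 (−0.17, SE 0.13). FBXO42 was at 27.7 and 24.9 FPKM in Mino and 8.79 and 7.86 in Z138 (mean log2 ratio −0.15, SE 0.13).

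The members tied to the cell cycle and NF-kB gave no call either. SKP2, which marks the CDK inhibitor p27, was at 32.1 and 32.2 FPKM in Mino and 10.8 and 9.74 in Z138. CCNF, which restrains the ribonucleotide reductase subunit RRM2, was at 22.4 and 20.1 in Mino and 20.0 and 20.1 in Z138. FBXO5 (EMI1), an inhibitor of the anaphase-promoting complex, was at 19.5 in both Mino libraries and at 18.2 and 20.3 in Z138. FBXW7, which marks MYC and cyclin E, was at 8.69 and 6.35 FPKM in Mino and 6.29 and 6.86 in Z138, log2 ratios of −0.40 and 0.11. BTRC, which marks the NF-kB inhibitor IκBα and beta-catenin, was at 2.49 and 2.42 in Mino and 2.31 and 2.72 in Z138, and its paralog FBXW11 at 16.4 and 15.6 in Mino and 9.62 and 10.1 in Z138. In each library FBXW11 was thus the more abundant of the pair. FBXO25, reported to act on the survival factor HAX1 in this lymphoma, was at 9.44 to 10.02 FPKM in the 4 libraries.

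The second comparison set Z138 against Mino, each line with its control and hairpin library. The line term of the same limma fit was used, so the 2 libraries of a line are the only replication, and they differ in vector. FBXO10 had a log2 difference of −2.01 (SE 0.14, 95% interval −2.32 to −1.69, adjusted p = 6.66e-06), with Z138 lower in 2 of 2 pairs of libraries. It was −2.08 between the controls and −1.93 between the hairpin libraries. Only FBXO2 and FBXO44 had lower differences among the 55 members. Over all 11484 symbols, 6.35% had a lower difference than FBXO10.

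Differences between the lines were common, and a call alone says little. Of all tested symbols 38.8% were called lower in Z138 and 28.7% higher. Of the 55 members 24 (43.6%) were lower and 8 (14.5%) higher. The median difference was −0.23 over the members and −0.12 over all tested symbols. Library medians on the log2 scale were lower in Z138 than in Mino by 0.16, and with medians set equal 19 members were lower and 14 higher. None of the 32 calls changed sign in that setting, in which 27 of them still passed. At a log2(FPKM + 1) difference of 2-fold or more, 11 members were lower, beside 18.3% of all symbols, and 1 was higher, beside 11.5%. In FPKM as such, FBXO43 (3.34-fold lower between the controls and 3.13-fold between the hairpin libraries) and FBXL17 (2.09-fold and 3.08-fold higher) also passed 2-fold in both pairs. FBXO2, FBXO44 and FBXO43 passed the filter on low values through Mino alone, so a difference was built into their entry and their values are a description. Among the 52 tested members with at least 1 FPKM in each library, 21 were lower and 8 higher.

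**Figure D3:**
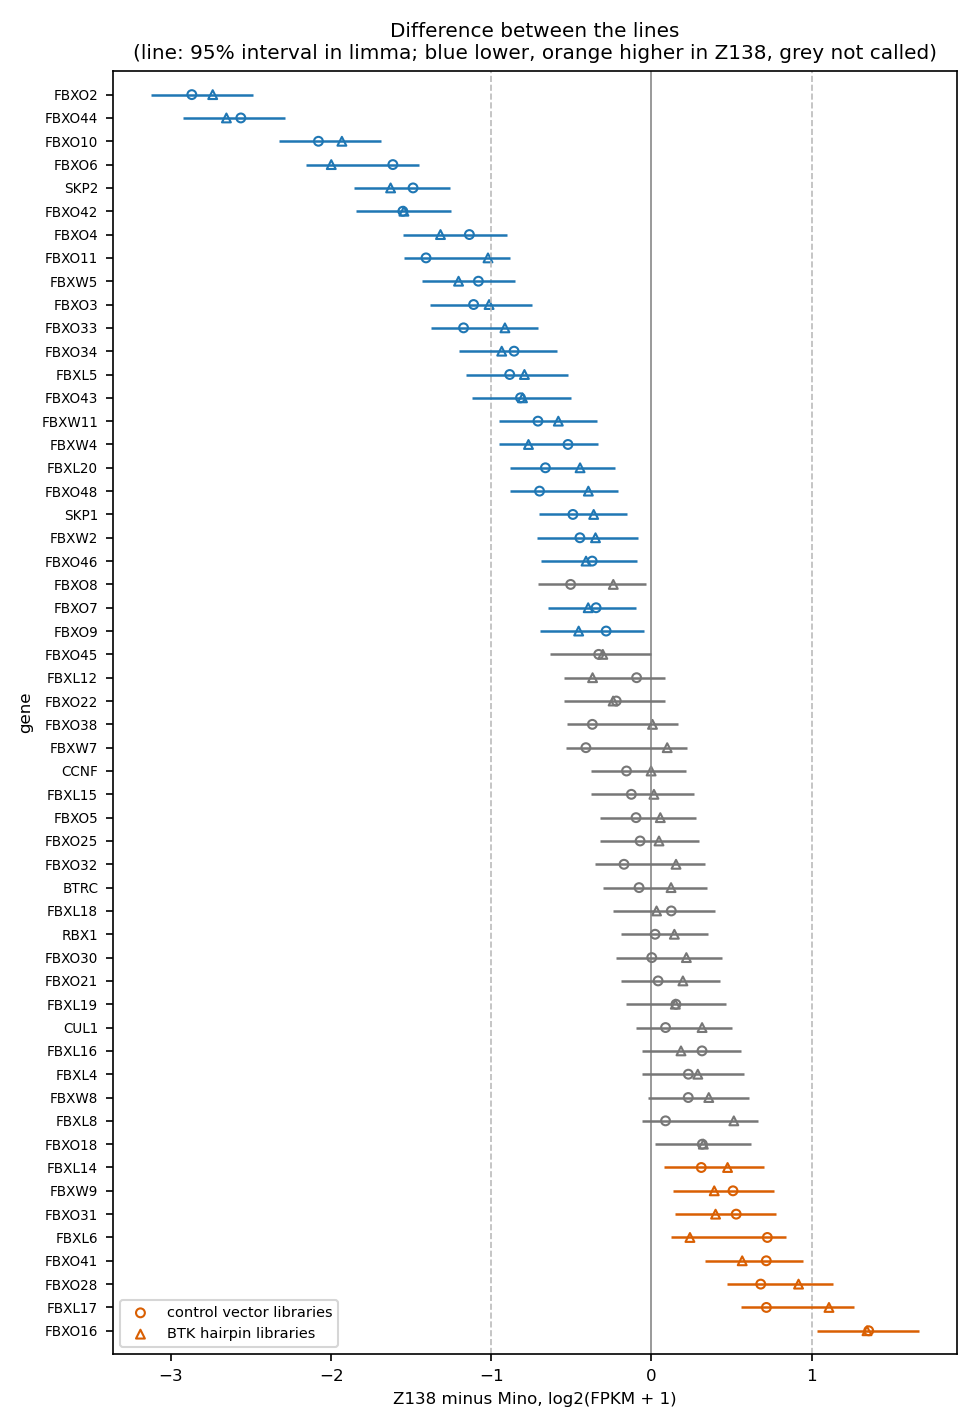
Difference between Z138 and Mino on the log2(FPKM + 1) scale for the members tested (1 of the 55 is not shown), with circles for the control libraries, triangles for the hairpin libraries and a line for the 95% interval of the limma estimate; blue is lower in Z138, orange higher and grey not called. FBXO2, FBXO44 and FBXO10 stand at the low end (−2.81, −2.61 and −2.01) and FBXO16 at the high end (1.35).

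Of the members with a log2(FPKM + 1) difference of at least 2-fold, 3 lie next to each other on chromosome 1. FBXO2, FBXO44 and FBXO6 encode related F-box proteins, of which FBXO2 and FBXO6 bind glycoproteins in the disposal of misfolded proteins. FBXO2 was at 7.76 and 6.30 FPKM in Mino and 0.198 and 0.0925 in Z138 (log2 difference −2.81). FBXO44 was at 8.43 and 8.23 in Mino and 0.595 and 0.467 in Z138 (−2.61). FBXO6 was at 10.7 and 11.4 in Mino and 2.82 and 2.10 in Z138 (−1.81, SE 0.15, adjusted p = 2.06e-05 in limma). For FBXO2 the FPKM ratio of Mino to Z138 was 39.2 between the controls and 68.1 between the hairpin libraries. Both ratios rest on Z138 values below 0.2 FPKM. With a pseudocount of 0.1 in place of 1 the log2 difference was −4.89 for FBXO2 and −3.75 for FBXO44. FBXO2 and FBXO44 overlap in RefSeq, and whether counting used strand is not stated, so their values may share reads. The other 2 genes of the glycoprotein list, FBXO17 and FBXO27, were at most at 0.0522 FPKM.

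Around each of these loci some genes were called lower in Z138 and some higher. Over all tested symbols 38.8% were called lower and 28.7% higher, so such counts say little about a locus. This look at neighbours was chosen after the differences had been seen, from the order of RefSeq protein-coding genes, 8 on each side. Beside the chromosome 1 trio, 10 of 16 neighbours were tested, 3 lower and 3 higher. Next to FBXO6, the DNA repair gene MAD2L2 was at 181 and 182 FPKM in Mino and 105 and 85.2 in Z138 (log2 difference −0.93, SE 0.13). Beyond it DRAXIN, a guidance factor gene, was at 5.30 and 4.59 against 0.435 and 0.224 (−2.16). DRAXIN, counted among the lower neighbours, passed the filter on low values through Mino alone, so a difference was built into its entry. The next gene, AGTRAP, was higher in Z138 (0.75, SE 0.15). The run of lower genes thus held FBXO2, FBXO44, FBXO6, MAD2L2 and DRAXIN, of which FBXO2, FBXO44 and DRAXIN were tested only through their Mino values. Around FBXO10 on chromosome 9, 14 of 16 neighbours were tested, 5 lower and 3 higher. The genes on either side of it were TOMM5, at 106 and 90.95 FPKM in Mino and 102 and 94.8 in Z138 (0.00, SE 0.12), and POLR1E, at 32.6 and 27.4 against 38.9 and 38.1 (0.36, SE 0.13). The lowest neighbour, ZBTB5, had −1.10 (SE 0.13), and the B cell factor gene PAX5 −0.56 (SE 0.13). FBXO10 had a lower difference than each of its tested neighbours. The untested neighbours FRMPD1 (1.26 and 0.629 FPKM in Mino, 0 in both Z138 libraries) and SHB (0.723 and 0.526 against 0.163 and 0.244) also had lower values in Z138. Around FBXO42, also on chromosome 1, 8 of 16 neighbours were tested, 3 lower and 1 higher, and around FBXO16 on chromosome 8, 14 were tested, 3 lower and 3 higher. Near FBXO42, MFAP2 had −1.97 (SE 0.14), lower than FBXO42 itself (−1.55). Near FBXO16, NUGGC had 1.96 (SE 0.19), higher than FBXO16 itself (1.35).

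**Figure D4:**
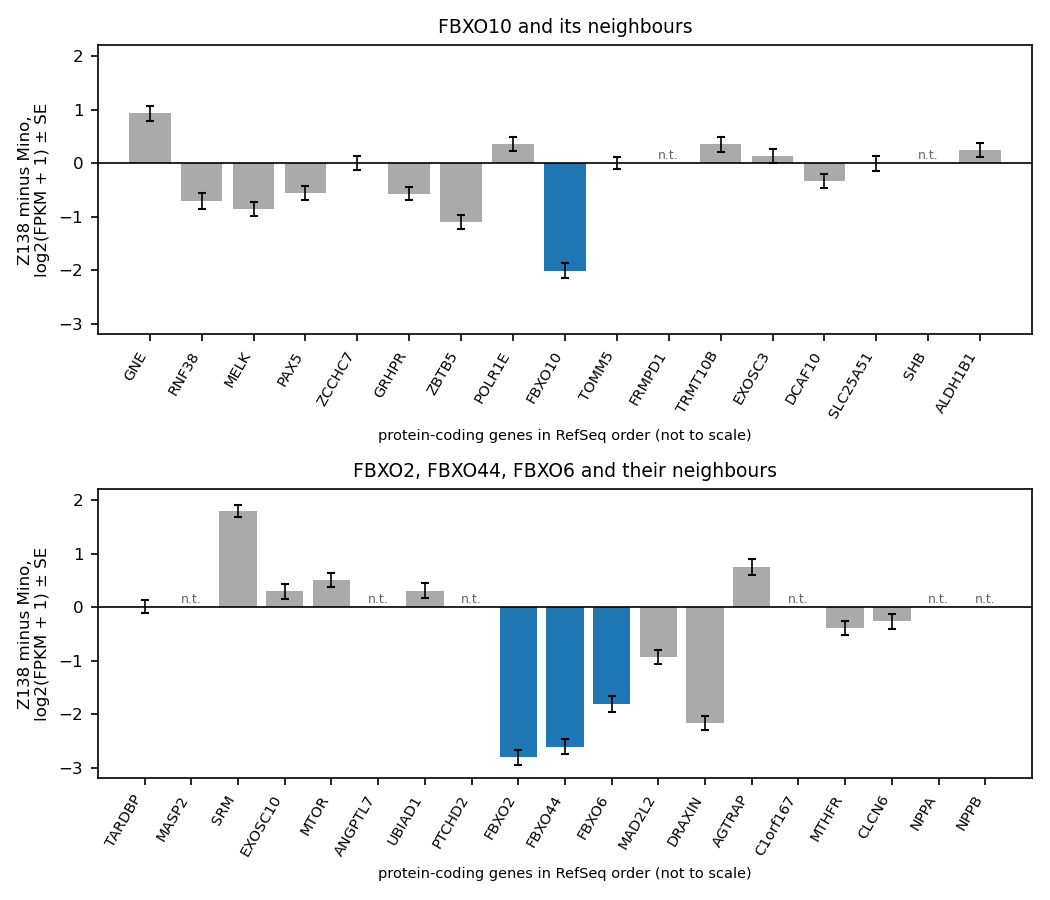
Difference between Z138 and Mino (log2(FPKM + 1), bars with SE from limma) for FBXO10, for FBXO2, FBXO44 and FBXO6 (blue) and for 8 protein-coding neighbours on each side (grey) in RefSeq order; n.t. marks genes below the filter. FBXO10 (−2.01) stands between TOMM5 (0.00) and POLR1E (0.36), whereas MAD2L2 (−0.93) and DRAXIN (−2.16) beside FBXO6 are also lower. FBXO2, FBXO44 and DRAXIN passed the filter through Mino alone.

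The other 7 members lower in Z138 by at least 2-fold on this scale were SKP2, FBXO42, FBXO4, FBXO11, FBXW5, FBXO3 and FBXO33. SKP2, whose FPKM are given above, had −1.56 (SE 0.13, adjusted p = 1.84e-05 in limma). It overlaps NADK2 in RefSeq. FBXO42, which acts on p53, had −1.55 (SE 0.13, adjusted p = 1.87e-05). FBXO11 was at 29.9 and 26.8 FPKM in Mino and 10.6 and 12.7 in Z138 (−1.21, SE 0.14, adjusted p = 0.00014), and overlaps MSH6. FBXO4, reported to act on cyclin D1, was at 7.02 and 7.93 in Mino and 2.65 and 2.58 in Z138 (−1.23, SE 0.14). Another 3 were FBXW5 (−1.14), FBXO3 (8.82 and 8.37 against 3.55 and 3.64 FPKM, −1.06) and FBXO33 (7.57 and 6.98 against 2.80 and 3.23, −1.04). With library medians set equal these 3 fell short of 2-fold, at −0.99 for FBXW5, −0.91 for FBXO3 and −0.89 for FBXO33. Below 2-fold on the log2(FPKM + 1) scale, lower members included FBXO34 (−0.90), the iron-sensing FBXL5 (−0.84) and FBXO43 (−0.81).

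The 8 members higher in Z138 were led by FBXO16, at 1.91 and 1.95 FPKM in Mino and 6.46 and 6.49 in Z138 (log2 difference 1.35, SE 0.14, adjusted p = 5.8e-05 in limma). FBXL17, which surveys the dimers of BTB proteins, had 0.91 (SE 0.15). FBXO28 was at 3.76 and 3.56 FPKM in Mino and 6.64 and 7.63 in Z138 (0.80, SE 0.14), and FBXO41 at 10.4 and 10.9 against 17.7 and 16.7 (0.64, SE 0.13). FBXL6 (0.48, SE 0.16) was at 9.90 and 11.7 in Mino and 17.0 and 14.05 in Z138. FBXO31, also reported to act on cyclin D1, had 0.46, FBXW9 0.45 and FBXL14 0.39. The 2 tested genes reported to act on cyclin D1, FBXO4 and FBXO31, thus differed in opposite directions.

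By domain class, 15 of 30 tested members with other domains were lower and 4 higher. Of those with WD40 repeats 4 of 8 were lower and 1 higher, and with leucine-rich repeats 4 of 14 were lower and 3 higher. Over all tested symbols 38.8% were lower and 28.7% higher. The 15 include FBXO2, FBXO44 and FBXO43, which were tested only through their Mino values, so that share is a description. Of the core, SKP1 was lower (−0.43, SE 0.12, adjusted p = 0.0132 in limma), while RBX1 (0.08, 95% interval −0.19 to 0.36) and CUL1 (0.20, −0.10 to 0.50) were not called. FBXW7, CCNF, FBXO5, FBXO25 and BTRC were not called either, with differences between −0.16 and 0.02. By role, beside the same 38.8%, 2 of 5 cell cycle members were lower (SKP2, and FBXO43, which was tested only through its Mino values), 3 of 5 with a known lymphoma role (FBXO10, FBXO11 and SKP2), and 1 of 2 acting on IκBα and beta-catenin (FBXW11). The 23 members without a call lay between −0.37 (FBXO8, 95% interval −0.71 to −0.04, adjusted p = 0.05 in limma, at the threshold) and 0.32 (FBXO18). For FBXO25 the 95% interval ran from −0.32 to 0.30 and for CCNF from −0.38 to 0.22.

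Genes whose profile was nearest to that of FBXO10 were ranked by the Euclidean distance between log2(FPKM + 1) profiles, each centred on its mean over the 4 libraries. Within the family these were FBXO6 (0.33), FBXO42 (0.46) and SKP2 (0.48), which ranked only 323, 544 and 582 among all tested symbols. The nearest of all, small noncoding RNAs, antisense RNAs and unnamed loci aside, was the kinase gene MARK4 (0.04), at 24.9 and 21.4 FPKM in Mino and 5.30 and 5.03 in Z138. CCDC19 (0.06), FAM102B (0.06), the sterol desaturase gene SC5D (0.06) and COBLL1 (0.06) came next. CCDC19, SC5D and COBLL1 were below 1 FPKM in both Z138 libraries and passed the filter on low values through Mino alone. COBLL1 was at 3.48 and 2.69 FPKM in Mino and 0.00399 and 0 in Z138, and CCDC19 at 4.31 and 3.66 against 0.217 and 0.177. The likeness is on the log2(FPKM + 1) scale, which understates changes of low genes, and need not extend to FPKM ratios. With 4 libraries and 38.8% of tested symbols lower in Z138, such likeness is a description only.

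The machinery around SCF was then described by lists. Of 8 genes for other cullins and the RING subunit RNF7, 14 genes of NEDD8 conjugation and cullin exchange, 9 of the COP9 signalosome and 9 ubiquitin-conjugating enzymes and partners, all tested, 0 passed for the hairpin in limma (0.122% of all symbols did). Their median hairpin log2 ratios were 0.06, 0.07, 0.05 and −0.02, beside 0.01 over all tested symbols. Between the lines, where 38.8% of all tested symbols were lower in Z138 and 28.7% higher, 3 of the 8 cullin genes were lower and 2 higher. CUL4A, a scaffold of other ligases, was at 14.8 and 15.97 FPKM in Mino and 34.6 and 40.1 in Z138 (log2 difference 1.23, SE 0.13). Of the NEDD8 list 4 were lower and 1 higher, among them DCUN1D1, which helps to load NEDD8 onto cullins (−1.11, SE 0.15). Of the COP9 list, whose products remove NEDD8, 1 was lower and 2 higher, among them GPS1 (0.97, SE 0.12). Of the conjugating list 5 were lower and 0 higher, among them ARIH1 (−1.09, SE 0.14) and UBE2R2 (−0.98, SE 0.12). Among 7 F-box proteins under other symbols, 4 were tested and 3 were lower in Z138: LMO7 (36.1 and 31.6 FPKM against 3.68 and 4.12, −2.83), the demethylase KDM2B (−0.86) and TSPAN17 (−0.41).

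Known substrates of F-box proteins were read as RNA only. Of 18 listed, 16 were tested, and 0 passed for the hairpin in limma. BCL2, the substrate of FBXO10, had 491 FPKM with sc4 and 297 with shBTK in Mino, and 61.2 and 54.0 in Z138. Its mean hairpin log2 ratio was −0.45 (SE 0.15), which was not called. FBXO10 and BCL2 RNA were thus both higher in Mino (BCL2 log2 difference −2.71, SE 0.15). GCSAM, a germinal centre gene whose product is also reported as an FBXO10 substrate, was the other way round, at 4.77 and 4.72 FPKM in Mino and 13.6 and 15.2 in Z138 (1.42, SE 0.14). In all, 9 of the 16 were lower in Z138 and 5 higher, beside 38.8% and 28.7% of all tested symbols. BCL6, the substrate of FBXO11, was at 78.1 and 61.2 FPKM in Mino and 0.567 and 0.541 in Z138. BCL6 passed the filter on low values through Mino alone, so a difference was built into its entry and its place in that count. CCNE1 was at 38.7 and 36.4 against 3.89 and 3.37, whereas MYC, another substrate of FBXW7, was at 63.9 and 46.6 against 407 and 439. FBXW7 itself was not called. RRM2 was at 122 and 102 FPKM in Mino and 34.5 and 35.6 in Z138, while CCNF was not called.

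**Figure D5:**
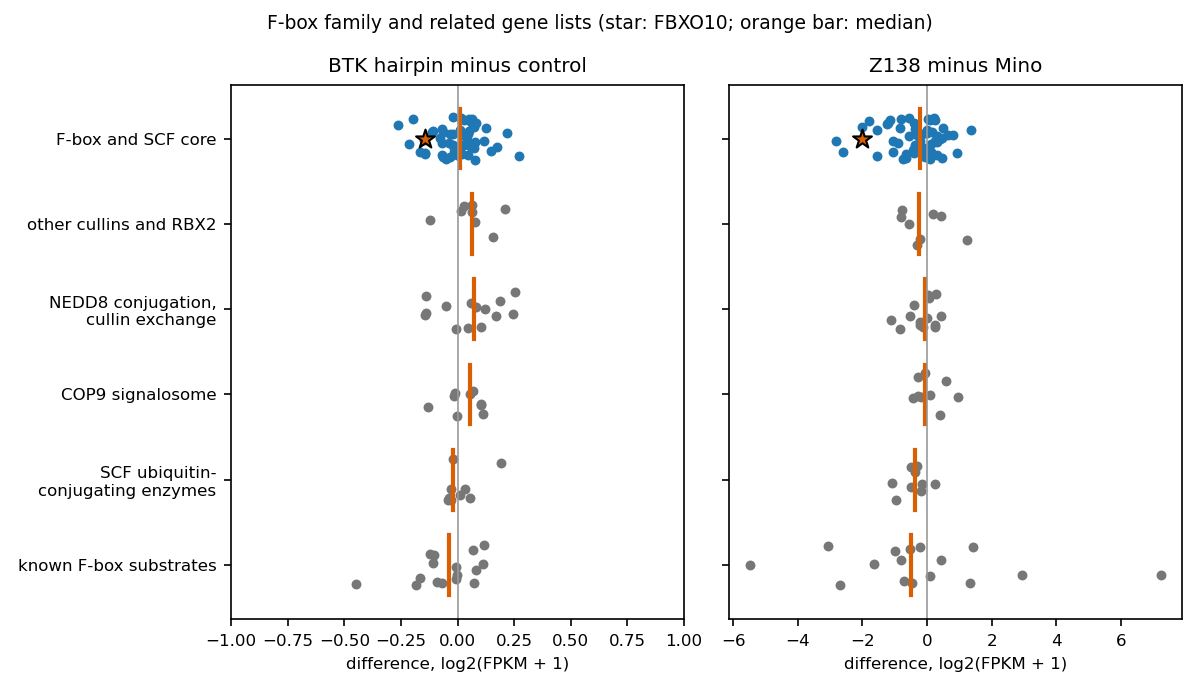
Log2(FPKM + 1) differences of hairpin against control (left, mean of both lines) and of Z138 against Mino (right) for the 55 F-box and SCF core genes (blue) and 5 related lists (grey); points are genes with vertical jitter, orange bars are medians and the star is FBXO10. The medians of the left panel lie between −0.04 and 0.07, and FBXO10 lies at −0.14 on the left and −2.01 on the right.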

How the data were processed

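RNA from 4 cultures was sequenced from TruSeq RNA libraries, per the labels' protocols. The authors deposited 1 table of FPKM values with 1 column per library, per the file headers. TopHat and hg19 are named in the submitters' processing notes. The sources used here do not state the program, annotation or strand setting behind the FPKM. Read depth is unknown, so no counting interval is given, and exact zeros can be failed estimates.

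Values were taken as log2(FPKM + 1). The 11484 symbols averaging 1 FPKM or more, 55 of them members, were fitted in limma 3.58.1 (R 4.3.3) with line and hairpin as additive terms, a mean-variance trend and Benjamini-Hochberg adjustment over all symbols at 0.05. The fit leaves 1 residual degree of freedom per gene, and 6.88 prior degrees of freedom are shared. It was tested on simulated data. GC content and length came from the longest GENCODE 29 transcript (98.0% of tested symbols), with trends removed by natural cubic splines. Alternatives were another pseudocount, other filters, equal library medians, no block, no trend, and each line or vector alone.

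Genes named are members by rank of level, of hairpin ratio and of line difference, plus up to 4 per list for the hairpin and 4 for the lines. Of the members, 1 enters the fits and counts but is not reported here by itself. Members and lists were chosen with earlier results of these data known. Nothing says that cultures were repeated, so p-values measure only the spread between these libraries.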

Additional observations from a re-analysis of the deposited data

Results flagged for a closer look

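FBXL6 had small ratios of opposite sign in the 2 lines. The lower limit on the size of such ratios was chosen after the values had been seen. Its log2 ratio of hairpin to control was 0.22 in Mino and −0.26 in Z138. With a single pair of libraries in each line, that difference was not tested. With the GC content and length trends removed, the ratios of FBXL6, whose longest transcript is 67.1% GC, were 0.20 and −0.14, and the Z138 value was then below that limit. Of the 55 members tested, 29 had ratios of opposite sign in the lines, and over the members the Z138 ratio had a Spearman rho of −0.45 with GC content (n = 55, genes of the same libraries).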

How the results depend on the processing

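The count of members that passed for the hairpin was 0 in each direction under each alternative run, and at most 1 member had an unadjusted p under 0.05 (with the GC and length correction). The FBXO10 hairpin ratio ran from −0.22 (without the Z138 pair) to −0.07 (without the Mino pair), with adjusted p-values of 0.999 to 1.00 in limma. Its difference between the lines ran from −2.27 (pseudocount 0.1) to −1.85 (equal medians), with adjusted p-values of 2.07e-10 to 0.000778 in limma, and from −2.08 to −1.93 with 1 vector alone. Members called higher in Z138 numbered 8 as reported and 14 with equal medians, and lower 24 and 19; over all alternatives the range was 6 to 14 higher and 18 to 26 lower. With a pseudocount of 0.1, 1 member passed 1.5-fold in Mino (FBXL8) and 1 in Z138 (FBXO2, below 0.2 FPKM there). The Z138 median of the members, 0.04, was 0.0018 with the GC and length correction and 0.0019 with equal medians. The median difference of the FBXO10 neighbours was −0.0015 with 8 on each side and 0.0067 with 4. For the chromosome 1 trio it was 0.15 and 0.30. The line term pairs each hairpin library with the control of its line, and without it 0 members passed for the hairpin as well. The labels give no replicate numbers that could serve as a further block. Depth is unknown, so what it limits cannot be stated; values under 1 FPKM were not tested. With 1 pair per line, a difference in response between the lines could not be tested.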
